A study of Bos grunniens with 6 samples.

Results

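N6-methyladenosine (m6A) peaks that lie in a single block and are at least 600 bp long were described in the testis of juvenile and mature yaks. The members were chosen by 2 measured values of the deposited comparison table, a block count of 1 and a span of at least 600 bp from start to end. This rule gave 1019 of the 16318 compared peaks (6.24%), which belonged to 909 genes, while 13 members carried no gene. They were set against 6756 shorter single-block peaks and 8543 peaks of more than 1 block. A block is a stretch of a peak that is not interrupted by an intron in the caller's gene model, and no annotation of this genome build was used here, so the exon itself was not looked up. Length and block number are outputs of the same peak calling that gave the enrichment and the methylation difference, so these values are described without a test.

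Testis was taken from healthy male yaks (*Bos grunniens*), 3 at 6 months of age before sexual maturity (Y6M) and 3 at 30 months of age after it (Y30M). For each yak, fragmented poly(A) RNA was sequenced after immunoprecipitation (IP) with an m6A antibody and also without it, as input. Peaks had been called with MeTDiff over the replicates of a group, so each peak has a single value for the comparison and none per yak, and its read depth is unknown. Gene expression was deposited per input library as FPKM, a fragment count scaled by transcript length and library size.

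m6A is written on RNA by the METTL3 and METTL14 complex, is removed by FTO and ALKBH5, and is bound by readers of the YTH family. In mammalian mRNA it is known to concentrate in long internal exons and around stop codons, where exon junctions are far away. In the testis, spermatogonia, meiotic spermatocytes and spermatids succeed each other, and writers, erasers and readers are all used along this series.

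The members had a median length of 831 bp and a mean of 949 ± 402 bp (SD over peaks), and together they covered 967 kb. The middle of the distribution was narrow, with quartiles at 696 and 1048 bp, whereas the longest member reached 4043 bp. At least 1000 bp was spanned by 281 members and at least 1500 bp by 80. At the limit, the nearest members of 600 bp lay in ENSBGRG00000009282 (fold enrichment 3.12) and ENSBGRG00000020975 (4). Just outside it, peaks of 599 bp lay in *ZDHHC23* (fold enrichment 3.19) and *SGO1* (3.48). Members of 600 to 649 bp (n = 168) had a median enrichment of 3.02 and peaks of 550 to 599 bp (n = 231) one of 3.01, so enrichment on both sides of the limit was alike. The median methylation log2 fold change of Y30M against Y6M was 0.23 just inside the limit and 0.29 just outside it. It was above 0 in 70.8% and 79.7% of these peaks.

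Most genes held 1 member. There were 827 such genes, while 69 genes held 2 members, 11 held 3 and 2 held 4. Members of the same gene were often neighbours on the transcript. Of 97 pairs of consecutive members in a gene, 57 were at most 1000 bp apart, and 16 had a gap of 90 to 110 bp. When all single-block peaks of the gene were counted, 547 members had such a neighbour, and for 223 of them (40.8%) the nearest was at most 200 bp away. The smallest gap was 96 bp. Members and their neighbours can thus cover 1 stretch with a short interval left out. Along the chromosomes 3 pairs of members overlapped, but none of them within a gene, where consecutive members were at least 97 bp apart.

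The members were spread over 32 of the 34 chromosomes or scaffolds with peaks. Chromosome 20 held the most, 92 members, which is 9.57% of its peaks against a median of 6.07% over the 30 chromosomes with at least 100 peaks. The lowest share was 3.33% on chromosome 23. In genes with 2 peaks, the member was the last one along the transcript in 168 of 283 cases (59.4%), compared with 55.3% for shorter single-block peaks and 44.6% for multi-block peaks. In genes with at least 4 peaks, 60.1% of members lay between the first and the last peak, compared with 56.9% of shorter single-block and 60.5% of multi-block peaks.

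Only part of the members can be discussed by gene name. A symbol was found for 288 members in 252 genes, through the gene identifiers in the study's supplementary lists. Naming favoured changed peaks, since a symbol was available for 120 of the 167 differentially methylated members (71.9%) and for 168 of the other members (19.7%). Counts over named members are therefore not counts over all members. Of the 288 named members, 110 (38.2%) were hypermethylated in Y30M and 10 (3.47%) hypomethylated, 240 (83.3%) had a methylation log2 fold change above 0, and its median was 0.46. Gene groups among the named members are to be read against these shares.

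The 6 longest named members lay in genes that include several nuclear regulators. *TCF20*, a transcriptional coregulator, carried a member of 4043 bp (chr5:121659756-121663798, fold enrichment 3.85). *NRIP1*, a nuclear receptor corepressor, carried one of 3179 bp (chr1:15064040-15067218, fold enrichment 3.76). *RAI1*, a chromatin-associated transcription regulator, carried one of 2693 bp (chr19:32480593-32483285, fold enrichment 4.97). The list continued with *PDZD2*, a PDZ scaffold protein (2690 bp), *SON*, a splicing cofactor (2592 bp), and *ANKRD50*, a protein of endosomal recycling (2583 bp). Of these 6 peaks, only that of *RAI1* was differentially methylated, with a log2 fold change of 0.61. The other log2 fold changes ranged from -0.13 in *PDZD2* to 0.37 in *ANKRD50*.

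Enrichment over input, the fold by which IP reads exceeded input reads in the deposited table, was higher in long peaks. Its median was 3.33 in the members (10th to 90th percentile 2.44 to 4.33) compared with 2.26 in shorter single-block peaks and 2.22 in multi-block peaks. The rise was gradual. The median was 1.85 below 150 bp, 2.23 at 200 to 299 bp, 3.04 at 500 to 599 bp, 3.59 at 1000 to 1499 bp and 3.78 from 1500 bp on. Over the 7775 single-block peaks, Spearman's correlation of length and enrichment was 0.567, and within the members it was 0.258. Peaks share libraries and depth and are not independent, so these coefficients are given without a p-value.

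**Figure D1:**
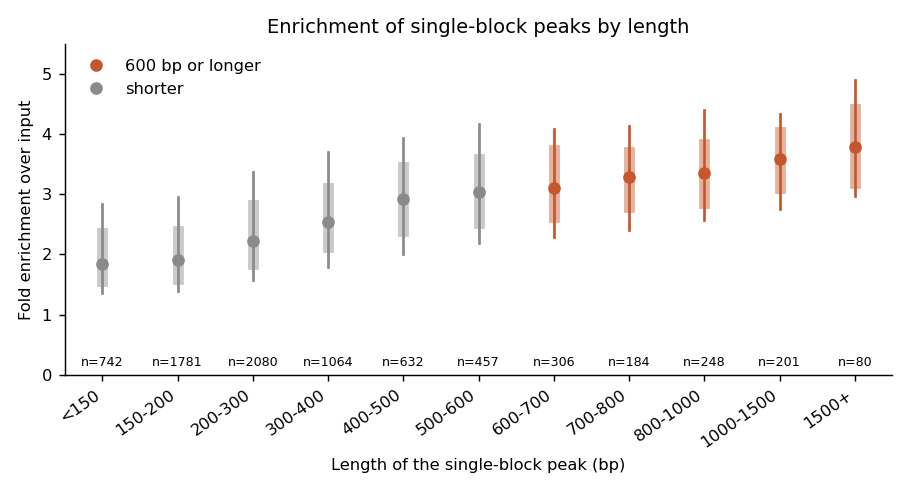
Fold enrichment over input (vertical axis) of single-block peaks by length in bp (horizontal axis); points are medians, thick bars the quartiles, thin lines the 10th to 90th percentiles, and orange marks peaks of at least 600 bp. The median climbs from 1.85 in the shortest peaks to 3.78 in those of at least 1500 bp, with no step at 600 bp.

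A high enrichment was also measured in long peaks of several blocks. Multi-block peaks whose blocks added up to at least 600 bp (n = 1706) had a median enrichment of 3.22, close to the members. Within the 597 genes that also held other peaks, the member was more enriched than the median of the gene's other peaks in 496 (83.1%), and it was the most enriched peak of the gene in 401 (67.2%). The last count took the highest member of a gene and included ties. Since 283 members lay in genes with only 2 peaks, a large share can be reached there without any difference. Against other single-block peaks of the same gene (418 genes), the member was higher in 349 (83.5%).

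The deposited FDR of the enrichment itself was at most 0.05 for 823 members (80.8%), where 69.0% of all compared peaks passed. In shorter single-block peaks the share was 62.7%. The 196 members that did not pass were not weakly enriched. Their median fold enrichment was 3.24, against 3.37 in the members that passed. They differed in the expression of their genes, as described further on.

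The most enriched named members came from genes of varied function. *FAM83H*, a regulator of the keratin cytoskeleton, stood at 5.46 (chr18:20804568-20805658, 1091 bp). *APCDD1*, an inhibitor of Wnt signalling, and *PCDHB1*, a protocadherin, both stood at 5.32, with members of 698 and 639 bp. *TAGAP*, a GTPase-activating protein of T cells, followed with 5.11, *PARS2*, the mitochondrial prolyl-tRNA synthetase, with 5.10, and *USP10*, a deubiquitinase, and *TIGD5*, derived from a transposase, with 5.08 each. The highest value of any member was 5.86. The members of *PCDHB1* and *TAGAP* had an own FDR of 1 in spite of these folds.

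Methylation shifted towards Y30M in most members. The deposited log2 fold change of Y30M against Y6M was above 0 in 802 members (78.7%), where 58.5% of all compared peaks were above 0. Of shorter single-block peaks 65.4% were above 0, and of those of 500 to 599 bp 78.8%, so this share is not particular to the members. The median log2 fold change was 0.31 in the members, 0.20 in shorter single-block peaks and 0.01 in multi-block peaks. The quartiles of the members were 0.05 and 0.51, so the shift was broad but small in most peaks. Multi-block peaks of at least 600 exonic bp had a median of 0.17, with 72.7% above 0.

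A peak was called a differentially methylated peak (DMP) when its deposited p-value, not adjusted, was 0.05 or less and its fold change 1.5 or more. This held for 167 members (16.4%), near the 14.6% of all compared peaks. Of them 154 were hypermethylated in Y30M (15.1% of members, background 10.2%) and 13 were hypomethylated (1.28%, background 4.34%). In shorter single-block peaks these shares were 13.9% and 3.91%, and in those of 500 to 599 bp 16.8% and 1.09%. Hypermethylation thus made up 92.2% of the DMPs among the members. It made up 78.1% of the 1205 DMPs among shorter single-block peaks and 57.2% of the 1006 among multi-block peaks. After centring on the median of all compared peaks, 0.09, the members held 86 hypermethylated and 22 hypomethylated peaks (79.6%). Long multi-block peaks had a similar split without centring, with 125 hypermethylated and 11 hypomethylated peaks (91.9%). Of the 167 DMPs among the members, 28 had an own enrichment FDR above 0.05, of which 24 were hypermethylated and 4 hypomethylated.

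**Figure D2:**
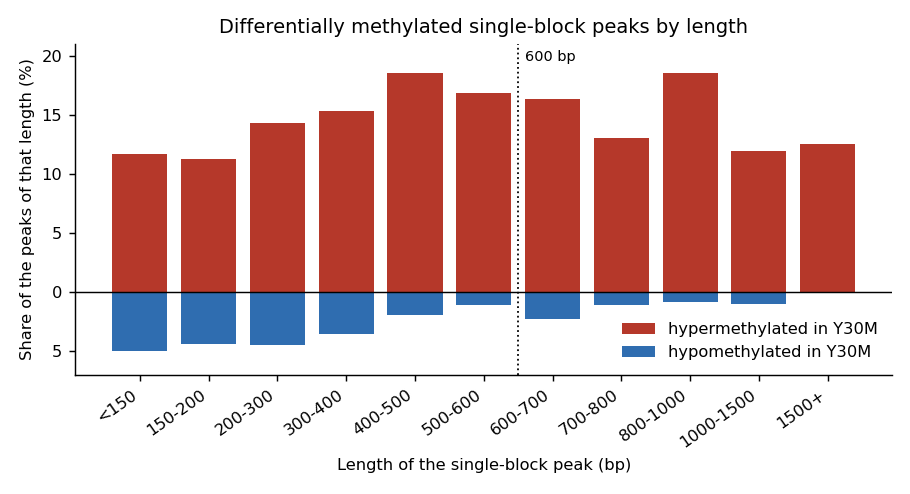
Share of single-block peaks that were hypermethylated (above the line, red) or hypomethylated (below, blue) in Y30M, in percent of the peaks of each length in bp; the dotted line marks 600 bp. The hypomethylated share goes from 4.99% below 150 bp to 0 of 80 peaks from 1500 bp on, while the hypermethylated share stays between 11.2 and 18.5%.

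The number of small p-values grew with length more than the size of the difference did. A p-value of at most 0.05 at any fold was listed for 646 members (63.4%), where 39.1% of all compared peaks reached it, and for 36.8% of shorter single-block peaks. Of the members, 549 of these 646 had a positive log2 fold change. From 1500 bp on, 72 of 80 peaks had such a p-value and 12.5% were DMPs. The median absolute log2 fold change was 0.35 in the members and 0.36 in shorter single-block peaks. A change of at least 2-fold was found in 11 of the 167 DMPs among the members and in 389 of the 1205 among shorter peaks.

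Members were also set against the other peaks of their own gene. In 373 of the 597 genes with other peaks (62.5%), the member had a higher log2 fold change than the median of the gene's other peaks, and the median difference was 0.10. Against other single-block peaks of the gene it was higher in 236 of 418 (56.5%).

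The named members with the largest hypermethylation included several regulators and cytoskeletal genes. *ZNF750*, a zinc finger transcription factor known from epidermal differentiation, had a log2 fold change of 1.52 (chr19:15293945-15294583), and *ABTB3*, an ankyrin and BTB domain protein, had 1.43 (chr5:33700672-33701315). *MACF1*, which links actin and microtubules, followed with 1.16, *PIGV*, a mannosyltransferase of GPI anchor synthesis, with 1.12, and *WDCP*, a WD repeat protein, with 1.07. *KIF26A*, an atypical kinesin, and *ZBTB6*, a zinc finger protein with a BTB domain, both had 1.05. An unnamed gene, ENSBGRG00000008078, had a higher value than all of these, 3.20 (chr9:96579147-96579947). The members of *ZNF750*, *ABTB3* and this gene had an own enrichment FDR of 1.

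Hypomethylated members were few, and 10 of the 13 had a symbol. The lowest named values were -0.82 in *ADGRL1*, an adhesion receptor (chr8:12913111-12913760), and -0.80 in *PLEC*, the cytolinker plectin (chr18:20975106-20975706). *SNRK*, a protein kinase, had -0.79, *PLEKHG2*, a guanine nucleotide exchange factor, -0.65, *PDE4A*, a phosphodiesterase that degrades cAMP, -0.63, and *POMGNT2*, a glycosyltransferase that acts on dystroglycan, -0.63. The second long members of *PLEC* and *PLEKHG2*, at -0.58 and -0.32, lay on the same side of 0 and were not DMPs. The unnamed gene ENSBGRG00000017916 had the lowest value of all members, -1.40 (chr5:56730391-56731082). Its own enrichment FDR was 1, and the gene had 0.0323 ± 0.0293 FPKM in Y6M and 2.40 ± 0.760 in Y30M (SD, n = 3), so there was almost no RNA to compare in Y6M.

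Genes with 3 long members show how far the values vary inside a transcript, and all 6 named genes with that number are given. *KMT2C*, a histone H3 lysine methyltransferase, had log2 fold changes of 0.37, 0.27 and 0.78, and only the last was a DMP. *MACF1* had 0.27, 0.33 and 1.16, with members of 650, 751 and 850 bp, and again 1 DMP. In *NCOA6*, a nuclear receptor coactivator, the values were 0.33, 0.66 and 0.39. The 3 members of *ZNF407*, a zinc finger protein, had 0.61, 0.56 and 0.35. The members of *JOSD1*, a deubiquitinase, had 0.63, 0.50 and 0.68, and 2 of them were DMPs. *SPEN*, an RNA-binding transcriptional repressor, was the exception in direction. Its members, of 1349, 1499 and 800 bp in a row with gaps of 90 to 110 bp, had -0.44, -0.18 and 0.17, and none was a DMP.

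The zinc finger genes, taken by symbol prefix, formed the most numerous group of named members. They held 38 members in 33 genes, which is 13.2% of the named members, compared with 5.52% of the named shorter single-block peaks and 4.55% of all named peaks. Many zinc finger genes are known to keep their finger repeats in a single long last exon. Their members measured 639 to 2327 bp, with a median of 846 bp. Chromosome 20 held 9 of them, more than any other. Of the 38, 15 were hypermethylated and 0 hypomethylated, and 32 had a log2 fold change above 0, with a median of 0.52. The hypermethylated share, 39.5%, is close to the 38.2% of all named members. *ZKSCAN4* (0.85), *ZNF592* (0.84 in 1 of its 2 members) and *ZNF471* (0.84) stood behind *ZNF750* and *ZBTB6*. *ZNF699* had the lowest value, -0.40. Zinc finger genes share similar repeats and multiply aligned reads were removed. Reads can thus be lost, and the values of these genes are less certain than those of other genes.

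The chromatin genes, taken in the same way, held 10 members in 5 genes, and all 10 had a log2 fold change above 0, from 0.27 to 0.78. With 3 hypermethylated members of 10, they were not above the share of all named members. They were *KMT2C*, *KMT2B*, *NSD1* and *SETD2*, which methylate histone H3, and *NCOA6*. A DMP was called in *KMT2C*, *NCOA6* and *SETD2* (0.66). Among 4 members in germ cell and RNA genes, that of *YTHDF2*, a reader of m6A, was itself hypermethylated at 0.64 (chr2:13072434-13073167). The DNA repair gene *BRCA2* was hypermethylated in 1 of its 2 members (0.86). The member of *BRCA1* had -0.01, with an own enrichment FDR above 0.05. The study lists another peak of *BRCA1*, outside the members, as hypermethylated. The prefixes meant for sperm tail and cilium genes took in *AKAP11*, *AKAP13* and *CCDC177*, of which the first 2 encode widely expressed anchoring proteins of protein kinase A. Of their 4 members that of *CCDC177* was hypermethylated (0.69). Ubiquitin genes had 1 hypermethylated member of 4, *USP10* (0.63). Kinesin and microtubule genes had 2 of 4, *KIF26A* (1.05) and the kinetochore gene *CENPF* (0.61), whereas both members of *MAP1A* were below 0. No group had a hypomethylated DMP. Groups of 4 members are too small to be set against the named members as a whole.

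**Figure D3:**
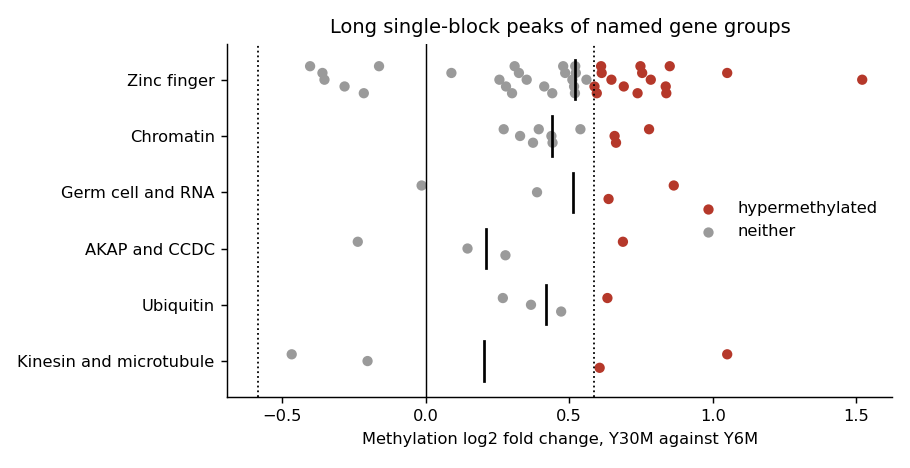
Methylation log2 fold change of Y30M against Y6M (horizontal axis) for each long single-block peak of 6 gene groups taken by symbol prefix; black bars are medians, dotted lines mark a fold change of 1.5, and red points are hypermethylated peaks. Most points lie to the right of 0, with zinc finger members spanning -0.40 to 1.52.

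The list of scored adenosines bears on what lies inside the members. Each listed adenosine in a group's peaks has a score of 0 to 1, and those at 0.528 or more are predicted as m6A sites. In Y6M the members held 17.9 listed adenosines per kb, which can be only a small part of all their adenosines. How the listed ones were picked is not given, so the shares below are shares of scored adenosines. In Y6M, 956 of the 1019 members (93.8%) overlapped a peak of the group's list, and 237 had the same start and end. At least 2 peaks of the list were overlapped by 197 members, and for 329 members a listed peak reached past the member. Inside the members' own intervals, 6114 of 14520 scored adenosines were predicted sites, which is 42.1% (exact 95% binomial interval 41.3 to 42.9). Shorter single-block peaks had 45.3% (44.7 to 46.0), and the blocks of multi-block peaks had 39.0% (38.5 to 39.4). The intervals cover counting error only, since neighbouring adenosines share sequence. When every scored adenosine of an overlapping group peak was counted, introns included, the share was 29.3% of 37542.

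The density of scored adenosines was alike, with 17.9 per kb in the members and 18.1 per kb in shorter single-block peaks. Very high scores, of 0.672 or more, were held by 7.06% and 8.19% of them. Along the members, divided into 10 equal bins, the predicted share stayed between 40.2 and 44.3% in the first 9 bins and was 37.3% in the last one. Long members thus held about the same share of predicted sites over most of their length.

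Both ages have a list for chromosomes 1 and 2. Of the 66 members there, 56 overlapped a peak in both lists, 4 in Y6M only and 6 in Y30M only. The predicted share inside the members was 42.2% in Y6M (441 of 1044) and 40.5% in Y30M (476 of 1174), with overlapping intervals of 39.2 to 45.3 and 37.7 to 43.4. Of the 115368 adenosines scored in both lists there, 97.6% had the same score, so the score carries almost no information on age and the lists differ in their peaks. The 6 members found in Y30M only had log2 fold changes of 0.13 to 0.50, and 0 of them was a DMP. The 4 found in Y6M only ranged from -0.46 to 0.59, and 1 of them was hypermethylated in Y30M.

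The expression of the genes was tested over the yaks. FPKM values were compared with limma on log2(FPKM + 1), a scale that understates the change of low genes, and a differentially expressed gene (DEG) met the same limits as a DMP, with the limma p-value before adjustment. Y30M replicate 3 and Y6M replicate 3 stood apart from the other libraries in the same way. The deviations of these 2 libraries from their group means correlated at 0.604 across genes, whereas each correlated negatively with the other group's replicates 1 and 2. Testis changes its cells between these ages, and in bulk tissue fewer cells of a type and less RNA per cell cannot be told apart. *GSG1*, the 1 of 12 spermatid markers with a symbol, had 0.588 to 1.09 FPKM in Y6M and 442 to 1204 in Y30M. The 3 of 9 Sertoli cell markers with a symbol summed to 159 to 222 FPKM in Y6M and 23.5 to 40.7 in Y30M, and all 3 fell. The Leydig cell marker *LHCGR* (1 of 6) and the endothelial markers *CDH5* and *PECAM1* (2 of 3) also fell, and of 8 spermatocyte markers *SYCP3* rose while *HORMAD1* stood at 13.5 ± 8.32 and 17.7 ± 16.5 FPKM (SD, n = 3 yaks each). No marker of spermatogonia, peritubular cells, macrophages or blood could be paired with an identifier, and the part of the cell types in the results below was not tested.

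Genes with a long single-block peak were moderately expressed. Of the 909 genes, 898 were in the FPKM table and 897 were tested. Their median FPKM, averaged over the 6 libraries, was 8.30 (quartiles 4.11 and 16.7), compared with 9.31 for genes with shorter single-block peaks only, 13.4 for genes with multi-block peaks only and 6.11 for all tested genes. Very low and very high genes were both scarce among them. A mean below 1 FPKM was found for 1.45% of them, against 8.04% of genes with shorter single-block peaks, and a mean of at least 100 FPKM for 1.56% against 3.03%. Per library, the Y6M yaks had medians of 7.52, 7.54 and 8.74 FPKM over these genes, and the Y30M yaks had 8.56, 5.86 and 7.42. The groups overlapped, with the lowest median in Y30M replicate 2.

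Of the 897 genes, 436 (48.6%) were DEGs, close to the 46.6% of all tested genes (the background) and below the 53.0% of genes with any peak. Equal numbers rose and fell. The 218 that rose are 24.3% (background 27.6%, genes with any peak 28.3%). The 218 that fell are 24.3% (background 19.0%), near the 24.7% of genes with any peak, so this share is not particular to the members. With an adjusted p-value of at most 0.05 in limma, 371 remained (41.4%, background 41.7%). The 3 yaks of each age did not overlap in 509 of the genes (56.7%, background 54.1%, genes with any peak 58.1%). A rise of at least 4-fold was seen in 72 genes (8.03%, background 11.7%), near the 8.42% of genes with any peak. Without replicate 3 of both groups, 393 genes were DEGs, of which 212 rose and 181 fell. The median log2 fold change was -0.10, and it was 0.04 over all tested genes. The direction balance depended on scaling. After rescaling to equal sums (TPM), 257 rose and 188 fell, while with median-of-ratios factors 194 rose and 270 fell.

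The named genes with the highest expression changed strongly. *DAG1*, which encodes dystroglycan, had 314, 308 and 305 FPKM in the Y6M yaks and 48.6, 37.0 and 38.7 in the Y30M yaks. It fell, with a log2 fold change of -2.88 ± 0.18 (SE) and a limma adjusted p of 3.98e-05, and its member of 1688 bp was hypermethylated at 0.63. *SGTA*, a co-chaperone, had 53.8, 57.9 and 53.9 FPKM in Y6M and 171, 260.0 and 132 in Y30M. *SUGP2*, a splicing-related protein, had 36.9, 34.2 and 45.4 FPKM in Y6M and 176, 156 and 177 in Y30M. Both rose with no overlap between ages, as did *THAP4*, a THAP domain protein (37.2 ± 8.95 to 147 ± 46.2 FPKM, SD, n = 3). The members of these 3 genes had log2 fold changes of 0.31, 0.13 and 0.10 and were not DMPs. Their members and that of *DAG1* had an own enrichment FDR above 0.05.

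The 4 largest rises among named member genes were in *PCDHB1*, *MYO18B*, *PKDREJ* and *DNAJC28*, while unnamed member genes reached a log2 fold change of 4.70 (ENSBGRG00000017148). *PCDHB1* had 0.0550, 0.0484 and 0.04998 FPKM in Y6M and 14.4, 9.15 and 13.8 in Y30M (log2 fold change 3.65 ± 0.28, limma adjusted p = 7.89e-05). *MYO18B*, an unconventional myosin, went from 0.437 ± 0.254 to 17.1 ± 4.23 FPKM. *PKDREJ*, a polycystin family protein of sperm, had 0.162, 0.295 and 0.314 FPKM in Y6M and 15.6, 11.5 and 14.3 in Y30M. All Y30M yaks lay far above all Y6M yaks in these genes. *DNAJC28*, a J domain protein, had 2.57, 3.18 and 5.34 FPKM in Y6M and also rose, but unevenly, with 79.3 FPKM in Y30M replicate 3 against 25.1 and 25.4 in the other Y30M yaks. Of the long members of these 4 genes only that of *PCDHB1* was a DMP, at 0.69, a difference set against very little RNA in Y6M. The study lists another peak of *PKDREJ*, outside the members, as hypermethylated. All 4 members had an own enrichment FDR above 0.05.

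Besides *DAG1*, the largest falls among named member genes were in *PDZD2*, *EMILIN1* and *SPRY1*, while unnamed member genes reached -4.35 (ENSBGRG00000013898). *PDZD2* had 30.6, 28.1 and 34.2 FPKM in Y6M and 1.05, 1.20 and 1.00 in Y30M (log2 fold change -3.94 ± 0.25, limma adjusted p = 3.94e-05). *EMILIN1*, an extracellular matrix glycoprotein, fell from 71.1 ± 16.0 to 6.43 ± 2.74 FPKM (SD, n = 3). *SPRY1*, an antagonist of receptor tyrosine kinase signalling, fell from 29.0 ± 12.3 to 3.55 ± 1.75 FPKM. *EMILIN1* and *SPRY1* both had hypermethylated members, at 0.60 and 0.66, whereas that of *PDZD2*, 2690 bp long, stood at -0.13. The members of *EMILIN1*, *SPRY1* and *PDZD2* had an own enrichment FDR above 0.05. The difference of *PDZD2* was set against little RNA in Y30M, and those of *EMILIN1* and *SPRY1* against less RNA than in Y6M.

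**Figure D4:**
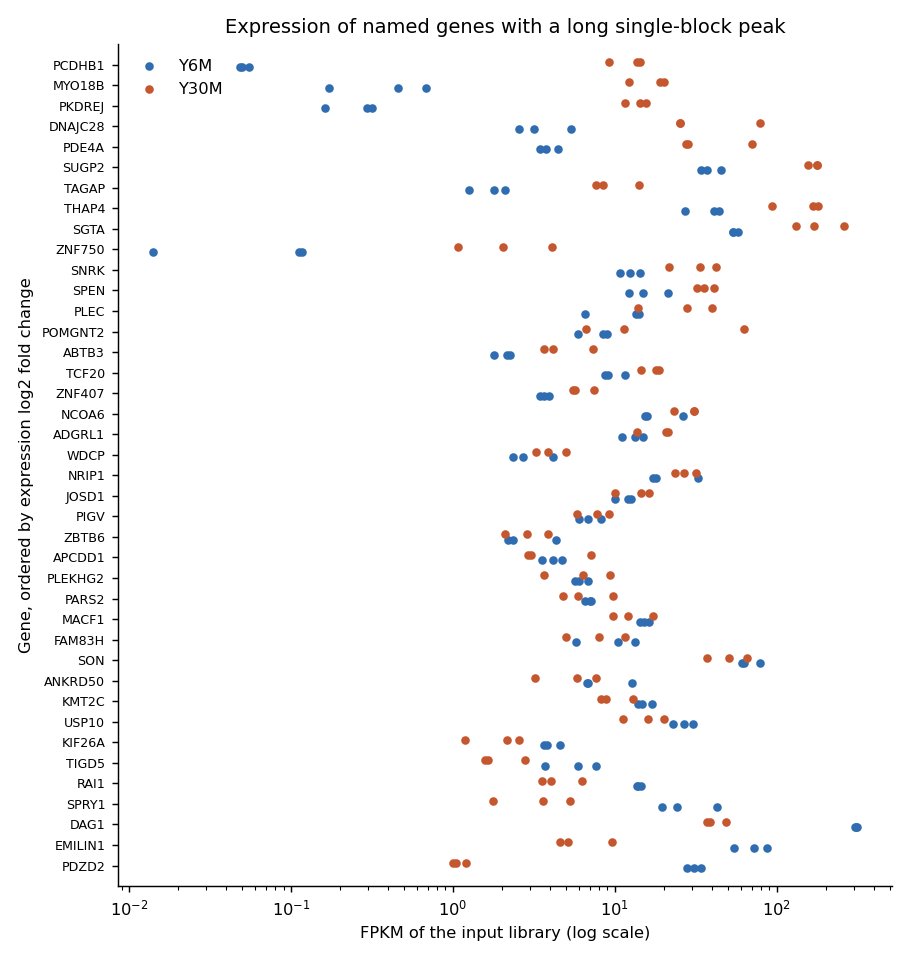
FPKM of the input libraries (horizontal axis, log scale) of the 40 named genes with a long single-block peak, ordered by expression log2 fold change; each point is a yak, blue for Y6M and orange for Y30M. Points of the 2 ages are far apart at both ends, from *PCDHB1* to *PDZD2*, and mixed in the middle.

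The genes of the longest members moved in both directions. *TCF20* rose from 9.07, 8.65 and 11.6 FPKM in Y6M to 18.02, 18.7 and 14.5 in Y30M, and all Y30M yaks were higher. The call of *TCF20* was lost without Y6M replicate 1 or 2 (log2 fold change 0.71 and 0.68, 0.75 with all yaks). *RAI1* fell from 14.5, 13.7 and 13.96 FPKM to 6.24, 4.02 and 3.54, with no overlap (log2 fold change -1.46 ± 0.28, limma adjusted p = 0.00453). *NRIP1*, *SON* and *ANKRD50* overlapped between ages, and their log2 fold changes of 0.31, -0.42 and -0.57 did not pass. By length, the share of genes that rose was 28.0% for members of 600 to 699 bp and 13.5% for those of at least 1500 bp (n = 74 genes), and the share that fell was 23.5% and 18.9%.

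Genes of the strongly hypermethylated members had no common direction. *ZNF750* had 0.112, 0.0141 and 0.116 FPKM in Y6M and 2.02, 1.08 and 4.08 in Y30M, and *ABTB3* had 2.17, 1.80 and 2.25 against 7.38, 4.17 and 3.64. Both rose, although *ABTB3* lost its call without Y6M replicate 1 or 2 (log2 fold change 0.96 and 0.87). *KIF26A* fell from 4.01 ± 0.524 to 1.97 ± 0.702 FPKM, a call that the adjusted p did not keep (limma adjusted p = 0.0683) and that was lost without any Y6M yak or without Y30M replicate 3 (log2 fold change -0.83 to -0.57). *MACF1*, *PIGV*, *WDCP* and *ZBTB6* overlapped between ages and were not DEGs. The unnamed gene ENSBGRG00000008078 rose from 0.0423 ± 0.0175 to 5.01 ± 0.880 FPKM. Its Y6M level, like that of *ZNF750*, was close to 0, so its methylation difference compares Y30M with very little RNA.

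Among the genes of the 6 lowest named hypomethylated members, 3 rose and 3 were not DEGs. *PDE4A* had 4.46, 3.47 and 3.78 FPKM in Y6M and 27.6, 70.1 and 28.4 in Y30M, with no overlap (log2 fold change 3.001 ± 0.39, limma adjusted p = 0.000763). *SNRK* had 10.8, 12.4 and 14.3 FPKM in Y6M and 33.7, 21.7 and 42.4 in Y30M and rose as well. *PLEC* rose from 11.4 ± 4.18 to 27.2 ± 12.98 FPKM, but the ages overlapped and the adjusted p was 0.0760 in limma. Its call was lost without any of the Y6M yaks and without Y30M replicate 1 or 2 (log2 fold change 0.81 to 1.31). *ADGRL1* and *PLEKHG2* were not DEGs. In *POMGNT2*, 1 yak stood out, with 62.7 FPKM in Y30M replicate 2 against 11.5 and 6.59 in the others, and the gene was not a DEG.

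Over all members with a tested gene, the peak call and the gene call were set side by side. The 150 hypermethylated members lay in genes that rose in 22 cases (14.7%), fell in 38 (25.3%) and did not pass in 90 (60.0%). The 830 members that were not DMPs lay in genes that rose in 25.2% and fell in 22.9%. The 13 hypomethylated members lay in genes that rose in 7 cases, fell in 3 and did not pass in 3. Hypermethylated shorter single-block peaks lay in genes that rose in 312 of 891 cases and fell in 196, and hypomethylated shorter peaks in genes that rose in 86 of 242 and fell in 81. Spearman's correlation of the peak's and the gene's log2 fold change was -0.202 over 993 members and -0.103 over 6430 shorter peaks. The input reads enter both values, so the coefficients are a description and carry no p-value.

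Members with an own FDR above 0.05 lay mostly in genes that changed in expression. Of the 189 such members with a tested gene, 166 (87.8%) lay in DEGs and 95 (50.3%) in DEGs with a change of at least 4-fold. Of the 804 members that passed, 303 (37.7%) lay in DEGs and 19 (2.36%) in DEGs of at least 4-fold. In shorter single-block peaks, 74.9% of those with an own FDR above 0.05 lay in DEGs, against 45.01% of the others. The own FDR is given for both ages together, and its link to expression was not tested.

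**Figure D5:**
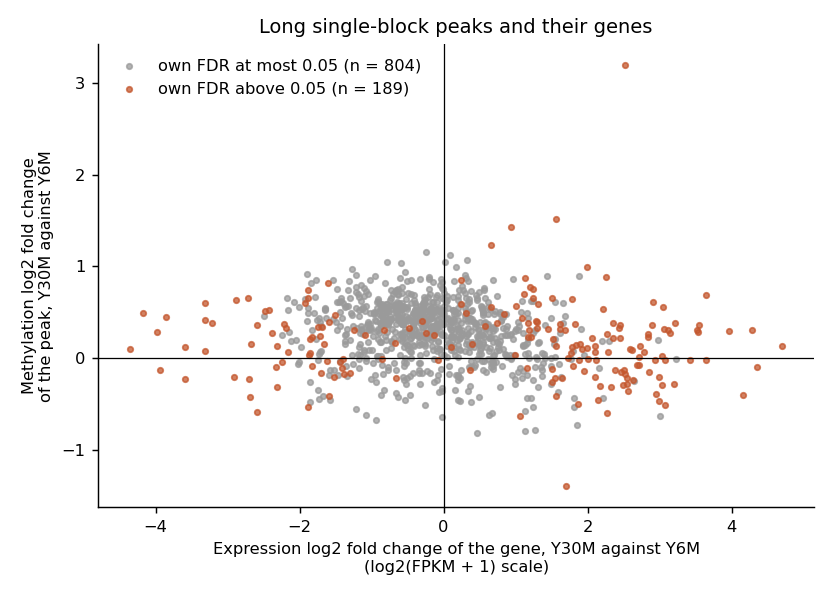
Methylation log2 fold change of each long single-block peak (vertical axis) against the expression log2 fold change of its gene on the log2(FPKM + 1) scale (horizontal axis), both Y30M against Y6M; orange points are the 189 peaks with an own FDR above 0.05 and grey points the 804 others. Orange points lie mostly at both sides of the plot, where expression changed most, and grey points around the middle.

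In the zinc finger genes with members, 5 of 33 rose and 6 fell, while 22 did not pass. *ZNF526* rose from 11.2, 8.47 and 9.65 FPKM in Y6M to 33.3, 34.97 and 29.7 in Y30M. *ZNF333* fell from 27.4, 25.6 and 22.6 FPKM to 9.53, 4.88 and 6.45. Among the 15 zinc finger genes with a hypermethylated member, 1 rose, 2 fell and 12 did not pass. Of the 5 chromatin genes 1 passed. *NSD1* fell from 25.8 ± 3.796 to 11.6 ± 4.15 FPKM (SD, n = 3), and the other 4 were not DEGs. In *KMT2C* the ages did not overlap either, with 13.9, 14.8 and 17.0 FPKM in Y6M and 13.02, 8.16 and 8.87 in Y30M, and its log2 fold change of -0.58 had a limma p-value of 0.0556. Of the germ cell and RNA genes, *BRCA1*, known for DNA repair in meiosis, rose from 1.55, 1.99 and 3.57 FPKM in Y6M to 12.5, 9.48 and 15.1 in Y30M. *YTHDF2* had 17.2, 18.8 and 21.4 FPKM in Y6M and 29.1, 23.2 and 28.3 in Y30M. Its ages did not overlap, but its log2 fold change of 0.47 and its limma p-value of 0.0534 both missed the limits. *CENPF* and *MAP1A*, a microtubule-associated protein, rose, *MAP1A* from 7.66 ± 0.776 to 70.6 ± 23.7 FPKM.

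Of the genes that write, erase or read m6A, few could be followed by name. Of 9 writers and 2 erasers 0 could be paired with an identifier, and of 10 readers 3 could. *YTHDF2* was the only one of these 3 with a long single-block peak. *IGF2BP2* fell from 22.3 ± 0.312 to 5.90 ± 1.74 FPKM, and *IGF2BP3* rose from 0.730 ± 0.213 to 2.55 ± 0.708 FPKM (SD, n = 3).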

How the data were processed

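Testis RNA of 6 yaks was analysed by MeRIP-seq, with the groups taken from the sample titles. Per the labels and the study's methods, clean reads were aligned to LU_Bosgru_v3.0 with HISAT2, multiply aligned reads were removed, and MeTDiff called peaks with input as control over the replicates of a group. The deposited peak table gives the fold enrichment over input (a ratio), p-values, FDR values and the log2 fold change of the comparison, the last in 2 columns of opposite sign. The column with the sign of the study's own list of differential peaks was used, so peak differences are the authors' values. The deposited FPKM table holds the 6 input libraries, with sums of 587932 to 702778 and 16947 to 18052 genes above 0. The deposited site lists give a score per listed adenosine, for Y6M on all chromosomes and for Y30M on chromosomes 1 and 2. Their tool is not given in the sources used here. The depth behind each value is unknown.

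Single-block peaks were split at 600 bp. FPKM was tested with limma 3.58.1 (lmFit and eBayes with a variance trend, R 4.3.3) on log2(FPKM + 1) over all 19477 genes above 0 in any library, with Benjamini-Hochberg adjustment, and tested on simulated data first. Groups differ by age alone in the labels, and replicates are separate yaks. Same-numbered yaks deviated together (r = 0.209, 0.283 and 0.604 across genes for replicates 1, 2 and 3), so a fit with the replicate number as a block was run as well. Replicates 1 and 2 also correlated across numbers (0.322 for Y6M 1 with Y30M 2 and 0.253 for Y6M 2 with Y30M 1), and replicate 3 alone correlated best with its own number in both groups. The scaling shifted the median log2 fold change of all genes, from 0.04 with FPKM to 0.11 with TPM. Gene symbols came from the study's supplementary lists, which paired 2139 identifiers, and 8 with conflicting symbols were left out. Named genes were chosen by rule among members with a symbol: the longest, the most enriched, the most hyper- and hypomethylated, the most expressed, those with the largest rise or fall, and those with the most members, ties included. Groups were formed by symbol prefix. The members and lists were chosen with earlier results of these data known. Alternatives changed the length limit, the thresholds, the centring, the scaling, the pseudocount and the libraries used.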

Additional observations from a re-analysis of the deposited data

How the results depend on the processing

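Length sets most of the counts. With a minimum of 500 bp there were 1476 members and with 800 bp 529, of which 84 were DMPs, in place of 167, and 216 of their genes were DEGs, in place of 436. The median enrichment was 3.26 at 500 bp and 3.51 at 800 bp. DMPs numbered 11 at a fold change of at least 2 and 108 after centring on the median of all peaks, which left 86 hypermethylated and 22 hypomethylated members. Centring lowered the median log2 fold change to 0.21, and members with an own FDR of at most 0.05 had 0.33. Of the scored Y6M adenosines, 42.2% were predicted sites when at least 50% of the group peak had to lie in the member. The share was 30.1% at 500 bp, 30.6% at 800 bp and 42.1% inside the members. In Y30M, listed for chromosomes 1 and 2 only, the share was 22.6% of 8298, against 40.5% under the 50% rule and 40.5% inside the members. On these chromosomes the Y6M shares were, in the same order, 34.0% of 1495, 41.4% and 42.2%. The count inside the members, 1 member per gene, the fit without a variance trend and the fit without replicate 3 of both groups were added after seeing the data.

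The replicate block gave 488 DEGs among the genes and changed no call of the 40 named genes. Leaving out 1 yak at a time gave 354 to 428 DEGs, with no yak moving the count by 1.5 times. Of the 40 named genes, 23 kept their direction and call under every alternative, 5 lost the call under at least 1 (*ABTB3*, *KIF26A*, *PLEC*, *TCF20* and *USP10*), and 6 that were not DEGs changed sign. *USP10* lost its call without Y6M replicate 1 or 3 or Y30M replicate 2 (-0.74, -0.66 and -0.54) and with TPM (-0.58), *KIF26A* also with TPM (-0.71) and *PLEC* with median-of-ratios factors (1.02) and without the variance trend. Another 6 genes that were not DEGs passed under at least 1 alternative. With TPM, *APCDD1* had 0.14, *PARS2* 0.099 and *PLEKHG2* 0.14, and with median-of-ratios factors *PIGV* had -0.023 and *ZBTB6* -0.078. Without single yaks the values were -0.36 to 0.16 for *APCDD1*, -0.55 to 0.029 for *FAM83H*, -0.32 to 0.12 for *PARS2*, -0.041 to 0.24 for *PIGV*, -0.29 to 0.28 for *PLEKHG2* and -0.15 to 0.25 for *ZBTB6*. Without replicate 3 of both groups, *APCDD1* had 0.17, *PARS2* 0.092, *PIGV* -0.028 and *PLEKHG2* 0.27. The cause was not tested.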
